A study of Mus musculus with 10 samples.

Results

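The EGF family of growth factors and the ERBB receptors were read gene by gene in whole 4T1 mammary tumors. The members were chosen by name, as 7 ligand genes (Areg, Ereg, Hbegf, Tgfa, Btc, Egf and Nrg1) and 3 receptor genes (Egfr, Erbb2 and Erbb3), and all 10 were found among the 17864 genes of the count table. Of the 10 members, 9 passed a filter on low counts, which kept 14816 genes in all, and Btc did not.

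EGF-family ligands are made as membrane-anchored precursors, which metalloproteases of the ADAM family cut to release the active factor. The released ligand binds an ERBB receptor, a receptor tyrosine kinase, and receptors then pair and pass the signal to RAS, ERK and PI3K. EGFR binds Areg, Ereg, Hbegf, Tgfa, Btc and Egf. Neuregulins such as Nrg1 bind ERBB3 or ERBB4, while ERBB2 binds no known ligand and serves as a partner. In the mammary gland, Areg is required for the growth of ducts at puberty, and EGFR and ERBB2 drive subsets of breast cancer.

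4T1 is a mouse mammary carcinoma line from a BALB/c mouse, used as a model of triple-negative breast cancer. The compared groups were 5 tumors grown from 4T1 cells with Cas9 and a control guide RNA (sgCon) and 5 tumors grown from 4T1 cells with Cas9 and a guide RNA that targets Wwtr1, which encodes TAZ (sgTaz). TAZ and its homologue YAP are co-activators of the Hippo pathway that act mainly through TEAD factors, and Areg is known as a target of YAP. The comparison asked which genes of the tumor differed when TAZ was targeted in the cancer cells.

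By the methods, tumors were started in mammary fat pad 4 of female mice, SCID or BALB/c, aged 6 to 8 weeks. Which of these strains carried the sequenced tumors, the age of the tumors, and whether each line was a pool or 1 clone are not given in the sources used here. Cas9 and guide RNAs were in the injected cells and not in the host, so that host cells kept Wwtr1. Nothing in the labels says whether tumors of a group came from separate mice, so p-values measure the spread between these tumors. Whole tumors were extracted, and in such samples fewer cells of a type and less RNA per cell cannot be told apart.

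The sgCon libraries held 14753922 to 19595821 counts and the sgTaz libraries 12185383 to 18395558. Wwtr1 itself was at 163 ± 30.2 CPM in sgCon and 108 ± 19.2 CPM in sgTaz tumors (SD, n = 5 each), a log2 fold change of -0.59 with SE 0.15 and an adjusted p of 0.096 in edgeR. DESeq2 gave Wwtr1 an adjusted p of 0.0127 and limma-voom one of 0.028, and 4 of 5 sgTaz tumors were below all sgCon tumors. CPM is counts scaled to 1000000 on the TMM-scaled total. Yap1 had a log2 fold change of 0.30 with SE 0.12 and an adjusted p of 0.184 in edgeR. Epithelial markers of the tumor cells (8 of 8 found, such as Epcam and Krt8) were present in every tumor, and Krt1, a marker of skin, was not in the table. Several sets of cell type markers differed on average between the groups, with overlapping ranges, and their summed levels are given with the members.

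Across all members, the comparison of sgTaz with sgCon called none at an adjusted p below 0.05 in edgeR, where 0.00675% of all genes tested were called. Before adjustment, 2 of 9 members, Nrg1 and Egfr, had a p below 0.05 and were higher in sgTaz tumors, a share of 22.2% beside 9.86% of all genes tested. No member was lower at that p, beside 11.9% of all genes. The 5 tested ligands of EGFR had fold changes below 0, as did 7855 of all 14816 genes tested, and none of them passed the test. Their median log2 of -0.58, beside -0.019 over all genes tested, is the value of Egf, a gene of low counts that turned to 0.15 without sgCon tumor 3 and to 0.034 in limma-voom. The 8 epithelial markers were below 0 too, with a median log2 fold change of -0.62, and their part in the levels of the ligands was not tested. DESeq2 called Nrg1 and Egfr, both higher, where it called 3.61% of all genes as higher and 3.6% as lower. limma-voom with quality weights called Nrg1 as higher and Tgfa as lower, where it called 4.63% and 5.8% of all genes in these directions.

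**Figure D1:**
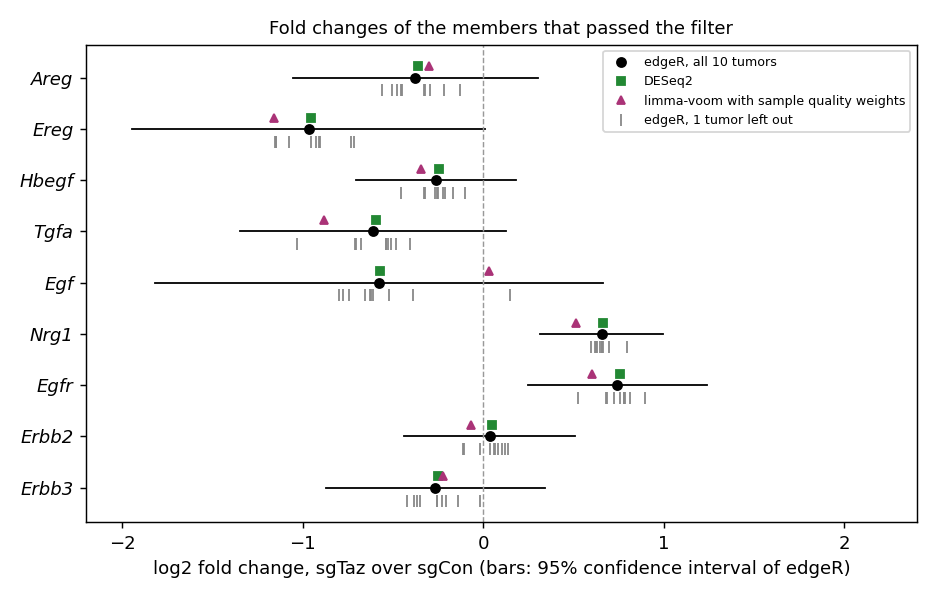
Log2 fold change of each member that passed the filter, sgTaz over sgCon, on the x axis. Black points and bars are edgeR with its 95% confidence interval, squares DESeq2, triangles limma-voom, and grey ticks edgeR with 1 tumor left out. The intervals of Nrg1 and Egfr lie above 0, and those of the other members include 0.

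The members lie on several chromosomes of mm10. Ereg (5:91074622-91093646, plus strand), Areg (5:91139599-91148432, plus strand) and Btc (5:91357261-91402994, minus strand) are neighbours, and with Epgn, another ligand of EGFR, they span 375.5 kb. Egfr (11:16752203-16918158) and Erbb2 (11:98412470-98437716), both on the plus strand, share chromosome 11 at a distance. Tgfa lies at 6:86195223-86275719 on the plus strand. Egf (3:129677565-129755316), Nrg1 (8:31814551-32884029) and Erbb3 (10:128567523-128589652) are on the minus strand. Exons of Ereg, Tgfa, Egf, Nrg1 and Erbb2 overlap exons of a gene on the opposite strand, by 9 bases (Erbb2 and Mien1) to 607 bases (Egf and Gm42697). Whether reads were counted by strand is not stated, so reads of these stretches cannot be assigned to a strand.

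Promoter windows of 250 bases before the annotated start were found in the RefSeq table of GRCm38.p6 for 6 of the 10 members. They were searched on both strands for 5 motifs. The core of TEAD sites, GGAATG, is in 12.6% of all 32851 windows of this length. The AP-1 site, TGANTCA, is in 6.75% of them, and the GC box of SP factors, GGGCGG, in 32.7%. The TATA box, searched as TATAAA, is in 12.4%, and the CRE bound by CREB, TGACGTCA, in 1.55%. The 4 windows shown are those of Egfr, the receptor with the largest fold change, of its partner Erbb2, and of the ligands Areg and Tgfa. Each is read 5′ to 3′ on the strand of its gene, with matches on either strand in capitals. The regions are chr11:16751953-16752202 (plus) for Egfr, chr11:98412234-98412483 (plus) for Erbb2, chr5:91139349-91139598 (plus) for Areg and chr6:86194972-86195221 (plus) for Tgfa.
Egfr: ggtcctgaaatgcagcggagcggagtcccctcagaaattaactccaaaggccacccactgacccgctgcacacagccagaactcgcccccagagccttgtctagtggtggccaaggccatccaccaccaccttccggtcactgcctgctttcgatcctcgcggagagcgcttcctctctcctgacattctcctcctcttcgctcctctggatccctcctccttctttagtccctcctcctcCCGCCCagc
Erbb2: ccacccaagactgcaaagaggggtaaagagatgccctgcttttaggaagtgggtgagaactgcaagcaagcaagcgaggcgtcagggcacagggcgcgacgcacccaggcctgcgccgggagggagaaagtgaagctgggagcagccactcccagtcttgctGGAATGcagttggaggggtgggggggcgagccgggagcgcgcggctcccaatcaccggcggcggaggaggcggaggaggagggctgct
Areg: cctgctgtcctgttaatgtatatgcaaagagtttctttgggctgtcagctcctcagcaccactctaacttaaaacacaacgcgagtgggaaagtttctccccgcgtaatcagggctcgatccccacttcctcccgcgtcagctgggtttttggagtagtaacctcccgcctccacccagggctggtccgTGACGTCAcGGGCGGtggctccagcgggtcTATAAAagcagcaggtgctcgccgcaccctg
Tgfa: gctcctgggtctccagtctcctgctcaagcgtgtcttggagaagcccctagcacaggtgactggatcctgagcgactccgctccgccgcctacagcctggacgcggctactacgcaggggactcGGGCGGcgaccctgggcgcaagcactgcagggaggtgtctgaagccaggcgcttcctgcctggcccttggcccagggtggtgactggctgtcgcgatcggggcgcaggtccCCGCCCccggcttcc

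The window of Egfr held a GC box 9 bases before the start, on the opposite strand, and no TATA box. That of Erbb2 held the TEAD letters, 88 bases before the start, and was the one member window in which they occurred. That of Areg held a TATA box at 31 bases, a GC box at 52 bases and a CRE at 61 bases, counted to the first base of the match. That of Tgfa, with 19 CpG dinucleotides beside a median of 6 in all windows, held 2 GC boxes at 126 and 15 bases. The AP-1 letters were in none of the member windows, and the windows of Btc and Egf held none of the motifs. A match describes the letters of a window and says nothing of binding.

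Nrg1, a neuregulin that signals through ERBB3 and ERBB4, was the member that separated the groups. Its level was 6.01, 8.86, 6.42, 5.33 and 5.75 CPM in sgCon tumors 1 to 5 and 10.1, 11.1, 9.16, 10.6 and 10.2 CPM in sgTaz tumors 1 to 5. All 5 sgTaz tumors were above all sgCon tumors, and the nearest values, 8.86 and 9.16 CPM, were close. The groups of 2.44% of all genes tested did not overlap with sgTaz above, and those of 2.13% with sgTaz below. The means were 6.47 ± 1.39 and 10.2 ± 0.721 CPM (SD, n = 5), a 1.58-fold difference. The log2 fold change was 0.66 with SE 0.16, a 95% confidence interval of 0.31 to 1.00, a p of 0.00136 and an adjusted p of 0.096 in edgeR. The exact two-sided permutation test gave a p of 0.00794, the smallest that 5 against 5 allows. DESeq2 gave an adjusted p of 0.00663 and limma-voom one of 0.0496. The counts behind these values were between 84 and 177 per tumor. All 6 macrophage markers were also higher on average in sgTaz tumors, with a sum of 1250 to 1723 CPM beside 627 to 1471 CPM in sgCon tumors, and their part in the levels of Nrg1 and Egfr was not tested.

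**Figure D2:**
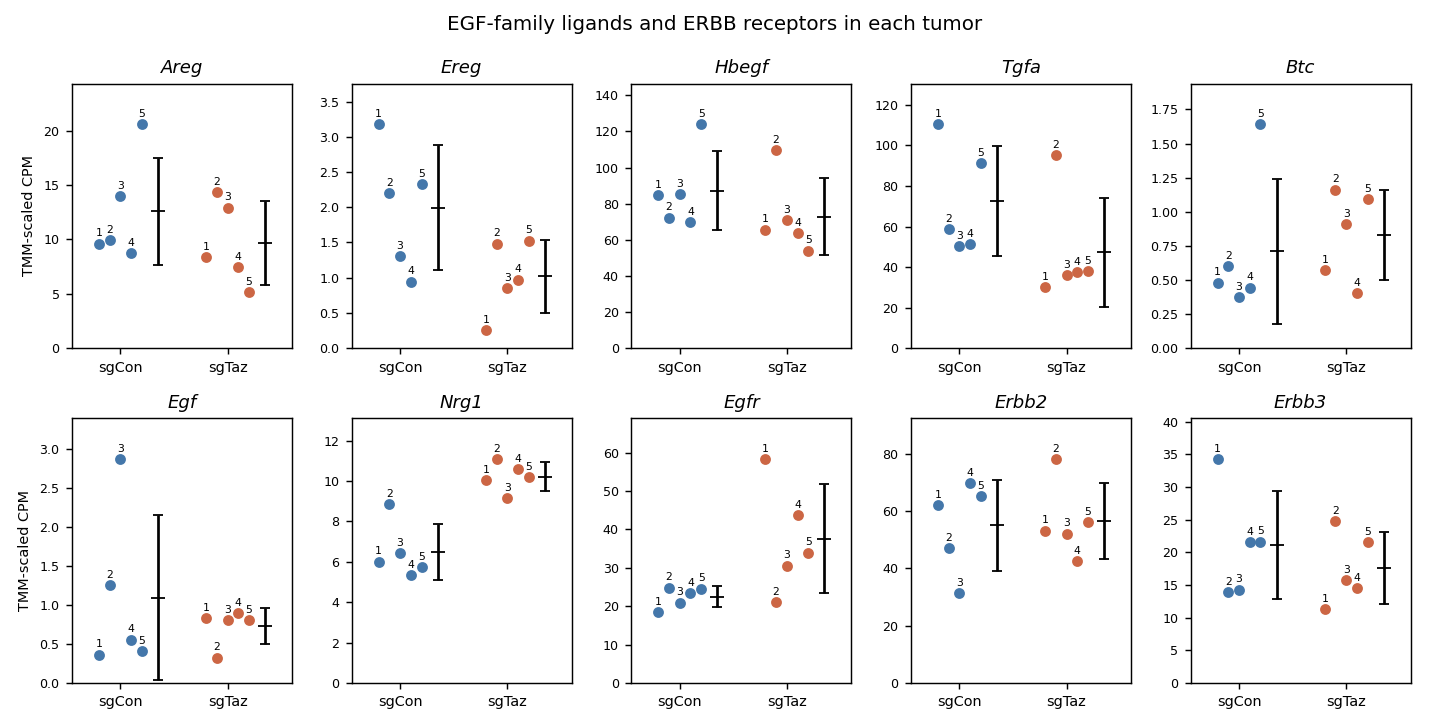
TMM-scaled CPM (y axis, from 0, a scale for each gene) of the 10 members in 5 sgCon and 5 sgTaz tumors, with the tumor number above each point. Black marks are the mean and SD. Nrg1 does not overlap between the groups, Egfr overlaps through sgTaz tumor 2, and sgTaz tumor 2 lies above the rest of its group for Tgfa.

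Egfr, the receptor of most ligands of the family, had the largest positive fold change among the members. Its level was 18.4, 24.8, 20.9, 23.4 and 24.6 CPM in sgCon tumors 1 to 5 and 58.4, 21.1, 30.5, 43.7 and 34.0 CPM in sgTaz tumors 1 to 5. The sgCon tumors were close to each other, 4 of the 5 sgTaz tumors were above all of them, and sgTaz tumor 2 lay within their range. The means were 22.4 ± 2.72 and 37.6 ± 14.2 CPM (SD, n = 5), a 1.67-fold difference. The log2 fold change was 0.74 with SE 0.23, a 95% confidence interval of 0.25 to 1.24, a p of 0.00715 and an adjusted p of 0.117 in edgeR. The exact two-sided permutation test gave a p of 0.0317, and DESeq2 gave an adjusted p of 0.0275. In limma-voom the adjusted p was 0.0697. The fold change was between 0.53 (without sgTaz tumor 1) and 0.89 (without sgTaz tumor 2) when each tumor was left out. sgTaz tumor 1, the highest for Egfr, had the lowest epithelial sum, 1556 CPM, and sgTaz tumor 2, the lowest of its group for Egfr, had the highest of its group, 3484 CPM.

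Erbb2, the partner receptor without a ligand of its own, was at nearly the same mean in both groups. Its level was 62.1, 47.0, 31.3, 69.9 and 65.4 CPM in sgCon and 53.2, 78.3, 52.2, 42.6 and 56.1 CPM in sgTaz tumors 1 to 5. The lowest tumor was in sgCon and the highest in sgTaz. The means were 55.1 ± 15.9 and 56.5 ± 13.2 CPM (SD, n = 5), with a log2 fold change of 0.04 and SE 0.22. Its 95% confidence interval, -0.44 to 0.51, leaves room for a change of a size found for other members, and the sign turned with sgCon tumor 2, sgCon tumor 3 or sgTaz tumor 2 left out (down to -0.11).

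Erbb3, which binds neuregulins and has little kinase activity of its own, was at 34.3, 13.9, 14.3, 21.6 and 21.6 CPM in sgCon and at 11.3, 24.7, 15.8, 14.6 and 21.6 CPM in sgTaz tumors 1 to 5. The groups overlapped over most of their range, and sgCon tumor 1 was the highest. The means were 21.1 ± 8.29 and 17.6 ± 5.47 CPM (SD, n = 5), and the log2 fold change was -0.27, with SE 0.28, a 95% confidence interval of -0.87 to 0.34 and an adjusted p of 0.605 in edgeR. It was -0.02 without sgCon tumor 1, -0.14 without sgTaz tumor 1 and -0.42 without sgTaz tumor 2.

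Ratios between the receptors within a tumor do not depend on how its counts were scaled. The log2 ratio of Egfr to Erbb2 was -1.24 ± 0.48 in sgCon and -0.64 ± 0.81 in sgTaz tumors (SD, n = 5). That of Egfr to Erbb3 was 0.16 ± 0.65 in sgCon and 1.06 ± 0.97 in sgTaz tumors. That of Erbb2 to Erbb3 was 1.40 ± 0.39 and 1.70 ± 0.32. Exact two-sided permutation tests gave p-values of 0.198, 0.143 and 0.238, all 0.238 after adjustment over the 3 ratios, and no ratio passed the test. Without sgTaz tumor 2 the differences in the ratios with Egfr were 0.91 (Erbb2) and 1.23 (Erbb3) on the log2 scale, with exact permutation p-values of 0.0476 and 0.0317, both 0.0714 after adjustment. That of Egfr to Erbb3 was 0.58 without sgTaz tumor 1, and that of Erbb2 to Erbb3 was 0.16 without sgCon tumor 1 and 0.17 without sgTaz tumor 1. In sgTaz tumor 1 the ratio of Egfr to Erbb3 was 2.36, and in sgTaz tumor 2 it was -0.23.

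**Figure D3:**
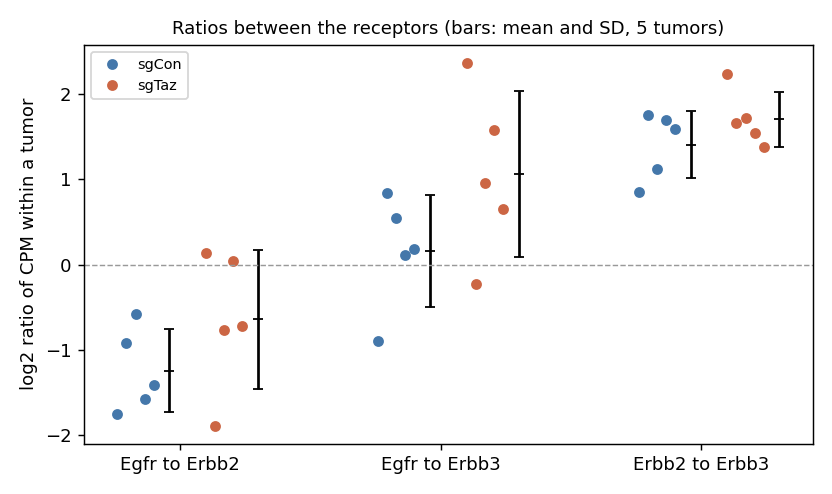
Log2 ratio of CPM between each pair of receptors (y axis) in each sgCon and sgTaz tumor, with the mean and SD of 5 tumors in black. The ratios with Egfr are on average higher in sgTaz tumors, by 0.60 and 0.91 on the log2 scale, and overlap with those of sgCon tumors.

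Tgfa, a soluble ligand of EGFR made by many carcinomas, was at 111, 58.8, 50.2, 51.2 and 91.3 CPM in sgCon and at 30.2, 95.3, 36.2, 37.4 and 37.9 CPM in sgTaz tumors 1 to 5. In 4 of 5 sgTaz tumors the level was below that of every sgCon tumor, and sgTaz tumor 2 was above 4 of the sgCon tumors. The means were 72.4 ± 27.1 and 47.4 ± 26.9 CPM (SD, n = 5). The log2 fold change was -0.61, with SE 0.34, a 95% confidence interval of -1.35 to 0.13 and an adjusted p of 0.313 in edgeR. The exact two-sided permutation test gave a p of 0.119. Without sgTaz tumor 2 the log2 fold change was -1.03, more than 1.5 times the value over all tumors, with an adjusted p of 0.0626 in edgeR, and without sgCon tumor 1 it was -0.41, with an adjusted p of 0.494. These tumors had the highest epithelial sums of their groups, 3484 and 4683 CPM. limma-voom, which weights each tumor by its estimated quality, had -0.88 with an adjusted p of 0.0413.

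Ereg (epiregulin), a ligand of EGFR and ERBB4, was at 3.18, 2.20, 1.31, 0.944 and 2.33 CPM in sgCon and at 0.255, 1.49, 0.857, 0.971 and 1.53 CPM in sgTaz tumors 1 to 5. The groups overlapped, with sgTaz tumor 1 below all others, at 4 counts. The log2 fold change, -0.97 with SE 0.45, was the lowest of the tested members. Its 95% confidence interval was -1.94 to 0.0079, and its adjusted p was 0.233 in edgeR. These values rest on 4 to 53 counts per tumor. The log2 fold change was between -1.15 and -0.72 when each tumor was left out.

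Areg (amphiregulin), the ligand of ductal growth, was at 9.61, 9.96, 14.0, 8.77 and 20.6 CPM in sgCon and at 8.40, 14.3, 12.9, 7.45 and 5.17 CPM in sgTaz tumors 1 to 5. sgCon tumor 5 was the highest and sgTaz tumor 5 the lowest. In 3 of 5 sgTaz tumors the level was below all sgCon tumors, and the other sgTaz tumors lay within the sgCon range. The means were 12.6 ± 4.92 and 9.65 ± 3.84 CPM (SD, n = 5), and the log2 fold change was -0.38, with SE 0.31, a 95% confidence interval of -1.06 to 0.30 and an adjusted p of 0.499 in edgeR. It was between -0.56 (without sgTaz tumor 2) and -0.13 (without sgCon tumor 5) when each tumor was left out, and -0.22 without sgTaz tumor 5.

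Hbegf, a heparin-binding ligand of EGFR and ERBB4 (18:36504927-36515805, minus strand), was at 84.8, 72.3, 85.3, 69.8 and 124 CPM in sgCon and at 65.6, 110, 71.0, 63.8 and 54.1 CPM in sgTaz tumors 1 to 5. In 3 of 5 sgTaz tumors the level was below all sgCon tumors, and the order of tumors was close to that of Areg. The means were 87.3 ± 21.8 and 72.8 ± 21.5 CPM (SD, n = 5), and the log2 fold change was -0.26, with SE 0.20, a 95% confidence interval of -0.70 to 0.18 and an adjusted p of 0.473 in edgeR. Without sgTaz tumor 2 it was -0.45, with an adjusted p of 0.134 in edgeR, while without sgCon tumor 5 it was -0.10, with an adjusted p of 0.818, and without sgTaz tumor 5 it was -0.17.

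Egf itself and Btc (betacellulin), both ligands of EGFR, were near the lower end of detection. Egf had between 5 and 46 counts per tumor, at 0.360 to 2.87 CPM in sgCon and 0.323 to 0.890 CPM in sgTaz tumors. The highest value was that of sgCon tumor 3, and without it the log2 fold change of -0.58 (SE 0.57, adjusted p 0.578 in edgeR) turned to 0.15. Btc had between 5 and 24 counts per tumor, at 0.374 to 1.64 CPM in sgCon and 0.405 to 1.16 CPM in sgTaz tumors. With no filter on low counts, its log2 fold change was 0.27 with an adjusted p of 0.772 in edgeR. Neither gene passed the test, and both rest on few counts and a wide spread between tumors.

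Levels of different genes were compared per kilobase of exon, as RPKM. In sgCon tumors the order was Hbegf (18.1 RPKM), Tgfa (11.2), Erbb2 (10.6), Areg (10.4), Erbb3 (3.51), Egfr (1.98), Nrg1 (0.625), Ereg (0.483), Btc (0.157) and Egf (0.0966). Of these neighbours, Tgfa, Erbb2 and Areg could not be ordered beyond their spread, nor could Nrg1 and Ereg or Btc and Egf, since the first was above the second in 3 or 4 of 5 tumors. The ranges of Areg, Erbb3, Egfr and Nrg1 followed each other without overlap. In sgTaz tumors Egfr (3.32 RPKM) stood above Erbb3 (2.92 RPKM) on average, and in 3 of 5 tumors. Nrg1 (0.988 RPKM) stood above Ereg (0.247 RPKM) in 5 of 5 sgTaz tumors and in 3 of 5 sgCon tumors. With the longest transcript in place of all exons, Hbegf was at 30.2 and 25.2 RPKM in sgCon and sgTaz tumors, Nrg1 at 1.20 and 1.89 RPKM and Egf at 0.229 and 0.153 RPKM. In the order, Btc and Egf then changed places in sgCon tumors, and Areg and Tgfa in sgTaz tumors.

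Of the summed RPKM of the 7 ligands, 40.9 ± 10.9 in sgCon and 31.8 ± 11.2 in sgTaz tumors (SD, n = 5), 3 ligands made up most. Hbegf had 44.4% ± 2.89 in sgCon and 48.0% ± 2.89 in sgTaz tumors. Tgfa had 27.2% ± 6.94 and 22.2% ± 5.01, and Areg had 25.0% ± 4.87 and 24.8% ± 5.32. The shares of these ligands overlapped between the groups. Nrg1 had 1.62% ± 0.584 in sgCon and 3.34% ± 0.890 in sgTaz tumors, where 4 of 5 exceeded every sgCon tumor. These shares are a description without a test, and they depend on exon length: with the longest transcript in place of all exons, the share of Areg was 17.5% in sgCon and 17.1% in sgTaz tumors, and that of Nrg1 2.16% and 4.38%. With no scaling by length, Nrg1 had 3.75% and 7.66%.

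**Figure D4:**
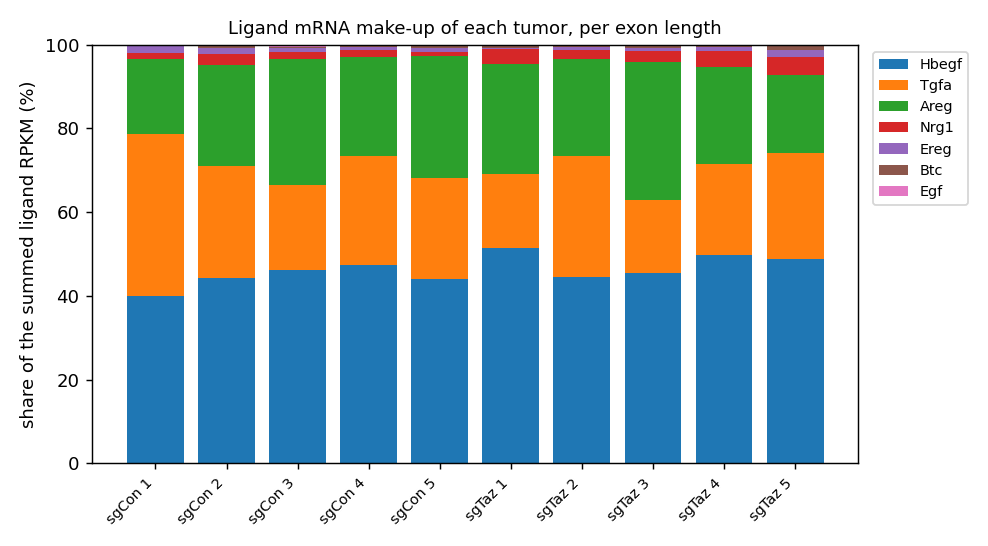
Share of each ligand in the summed RPKM of the 7 ligands (y axis, percent) in each tumor. Hbegf, Tgfa and Areg fill most of every bar, and Nrg1 is between 0.954% and 2.53% in sgCon and between 2.11% and 4.29% in sgTaz tumors.

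Tumor by tumor, sgTaz tumor 2 stood apart for the members. It was the highest of its group for 7 of the 10 members (Areg, Hbegf, Tgfa, Btc, Nrg1, Erbb2 and Erbb3) and the lowest for Egf and Egfr. Its summed level of epithelial markers was 3484 CPM, while the rest of its group had 1556 to 2046 CPM and sgCon tumors had 2151 to 4683 CPM. All 8 of these markers were lower on average in sgTaz tumors. An unadjusted p below 0.05 in edgeR was found for 5 of the 8, beside 11.9% of all genes tested that were lower at that p. None of the 8 was called at an adjusted p below 0.05, where edgeR called 1 of all 14816 genes. The tumor at the other end was sgTaz tumor 1, with the highest Egfr and the lowest Ereg, Tgfa and Erbb3 of its group, the lowest epithelial sum (1556 CPM) and a fibroblast sum of 1402 CPM beside 2589 to 2985 CPM in the other sgTaz tumors.

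Per 1000 CPM of summed epithelial markers, Tgfa was at 17.5 to 29.8 CPM in sgCon and 18.2 to 27.3 CPM in sgTaz tumors. On this scale its highest and lowest tumor differed 1.70-fold, beside 3.67-fold in CPM. Erbb3 was at 5.35 to 7.40 CPM in sgCon and 7.10 to 10.6 CPM in sgTaz tumors, and its spread was 1.97-fold beside 3.05-fold in CPM. Egfr and Nrg1 spread more on this scale than in CPM (9.54-fold beside 3.17-fold, and 5.04-fold beside 2.08-fold), with 4 of 5 sgTaz tumors above all sgCon tumors for each. Erbb2 was at 13.3 to 24.0 CPM in sgCon and 21.6 to 34.2 CPM in sgTaz tumors, with a spread of 2.58-fold beside 2.51-fold in CPM. The spread of Hbegf was 2.33-fold beside 2.30-fold, that of Areg 3.28-fold beside 3.99-fold, and that of Ereg 5.19-fold beside 12.5-fold. Btc (5.22-fold beside 4.39-fold) and Egf (17.3-fold beside 8.89-fold) spread more than in CPM. This scale was chosen after the values had been seen and carries no test, and the part of the epithelial share in any fold change was not tested.

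**Figure D5:**
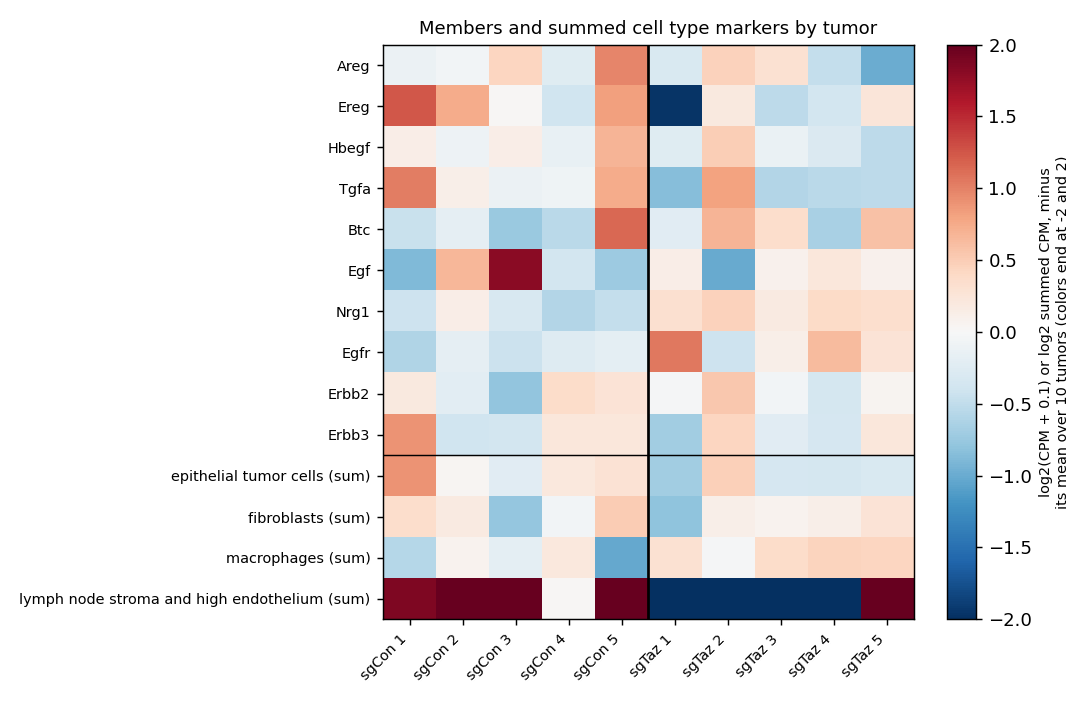
Members (rows above the line, log2(CPM + 0.1)) and summed cell type markers (rows below, log2 summed CPM) in each tumor, as the difference from the mean over 10 tumors. Tgfa and Erbb3 follow the epithelial sum, which is high in sgCon tumor 1 and sgTaz tumor 2 and low in sgTaz tumor 1. Nrg1 is above its mean in all sgTaz tumors and in sgCon tumor 2.

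Summed markers of other cell types were read as well, and their ranges overlapped between the groups. Egfr and Nrg1 can be expressed by stromal cells too, and which cells their RNA came from was not tested. Beside the macrophage markers given above, the 8 fibroblast markers split into 4 higher and 4 lower by mean log2 CPM (1402 to 2985 CPM beside 1446 to 3507 CPM). By edgeR fold change, 5 of them were above 0 and 3 below. Of the 4 endothelial markers, 3 were higher and 1 lower by mean log2 CPM in sgTaz tumors, while all 4 had edgeR fold changes above 0. Endothelial sums were 245 to 522 CPM in sgTaz beside 314 to 391 CPM in sgCon tumors. All 5 markers of adipocytes were higher on average in sgTaz tumors, at 35.3 to 176 CPM beside 50.9 to 93.7 CPM. Neutrophil markers (6 of 6) were lower, at 66.8 to 260 CPM beside 168 to 695 CPM. Markers of B cells (4 of 4), T cells (5 of 5) and lymph node stroma (7 of 7) were also lower, and those of B cells ranged from 48.0 to 557 CPM in sgCon and from 0.700 to 117 CPM in sgTaz tumors. T cell sums were 94.4 to 574 CPM in sgCon and 74.1 to 185 CPM in sgTaz tumors, and those of lymph node stroma 40.0 to 807 and 1.55 to 385 CPM. In some tumors Ms4a1, Ccl19, Cr2, Glycam1, Madcam1 and Chst4 had 0 counts. Muscle (0.411 to 29.4 CPM in sgCon, at most 0.485 CPM in sgTaz) and skin markers (5.49 to 11.4 and 6.32 to 7.10 CPM) were low. The part of these cells in the levels of the members was not tested.

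Members were also compared with each other across the 10 tumors, with the mean of each group taken off, in 36 pairs. Areg and Hbegf varied together (Pearson r = 0.887, exact permutation p within groups 0.000486, adjusted over the pairs 0.0175, Spearman rho = 0.903, adjusted exact permutation p 0.0267). With the 2 tumors most distant from the median Areg level left out, r was 0.829. It was the 1 pair with an adjusted p below 0.05 by r, and 11 pairs were below 0.05 before adjustment. By rho, 3 pairs had an adjusted p below 0.05, Areg with Hbegf, Ereg with Tgfa and Egf with Erbb3.

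Ereg and Tgfa had an r of 0.698 and a rho of 0.915, with exact permutation p-values adjusted to 0.163 and 0.0267, and an r of 0.698 without the 2 farthest tumors. Tgfa and Erbb3 had an r of 0.770 (rho = 0.830) with adjusted exact permutation p-values of 0.0931 and 0.058, and r was 0.479 without the 2 farthest tumors. Egfr ran against Erbb3, with an r of -0.687 (rho = -0.721) and adjusted exact permutation p-values of 0.0975 and 0.158. The r of Egfr with Tgfa, -0.707 (rho = -0.503), did not pass the adjusted exact permutation test (p = 0.163 and p = 0.455) and was -0.16 without the 2 farthest tumors, so that it rested on them. Egf had an r of -0.935 with Erbb2 and of -0.771 with Erbb3 (rho = -0.891 and rho = -0.879), from low counts of Egf, with adjusted exact permutation p-values of 0.0931 and 0.0975 for r and of 0.0506 and 0.0267 for rho. Pairs share libraries, and so their scaling and their mixture of cells.

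Among 14812 genes, those whose levels followed a member most closely in the same way are given as a description. They were Pard6b (r = 0.984) and C77080 for Tgfa, Ovol2 (r = 0.978) and Zdhhc1 for Erbb2, Cdh11 (r = 0.973) and Gria3 for Ereg, and Mettl8 (r = 0.970) and Actl6a for Egfr. For Erbb3 they were Pa2g4 (r = 0.957) and 4921507P07Rik, for Hbegf Col7a1 (r = 0.961) and Rad52, and for Areg Lrrc71 (r = 0.918) and Klhl21. For Nrg1 they were Itpa-ps1 (r = 0.928) and Ltb4r1, and for Egf Kcnab2 (r = 0.973) and Spns3. Each is the highest of many correlations over 10 tumors.

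The pathway around the members was read in 46 further genes, of which 45 were in the table and 43 were tested. None was called by edgeR at an adjusted p below 0.05. At an unadjusted p below 0.05, 6 were higher and 2 lower in sgTaz tumors, shares of 14.0% and 4.65% beside 9.86% and 11.9% of all genes tested. Their median log2 fold change was 0.09, beside -0.019 over all genes tested. The groups did not overlap for 4 as higher (Adam10, Spred1, Spred2 and Etv5), those of Spred1 only just, and for 1 as lower (Dusp5). Over all genes tested, 2.44% did not overlap as higher and 2.13% as lower. DESeq2 called 3 as higher and 1 as lower, beside 3.61% and 3.6% of all genes tested. limma-voom called 5 as higher and 2 as lower, beside 4.63% and 5.8%.

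Among the ligands and the receptor outside the member list, 2 of 5 were tested, Nrg2 and Nrg4, both neuregulins. Nrg2 was at 1.33 ± 0.634 CPM in sgCon and 2.53 ± 0.820 CPM in sgTaz tumors (SD, n = 5), a log2 fold change of 0.91 with SE 0.37, a p of 0.0292 and an adjusted p of 0.186 in edgeR. Nrg4, at a mean of 0.458 CPM in sgCon and 0.774 CPM in sgTaz tumors, had a log2 fold change of 0.72 with SE 0.58 and an adjusted p of 0.482 in edgeR. Erbb4 was not tested, and its mean was 0.036 CPM in sgCon and 0.048 CPM in sgTaz tumors, with a lowest value of 0 in both groups. Levels of Nrg2, Nrg4 and Erbb4 were thus low. Of the 4 genes of ligand release, Adam10, a protease that cuts Egf and Btc from the membrane, was at 278 ± 25.8 CPM in sgCon and 374 ± 30.7 CPM in sgTaz tumors, and the groups did not overlap. Its log2 fold change was 0.43 with SE 0.08, a p of 0.000335 and an adjusted p of 0.0824 in edgeR. Adam17, the main protease of Tgfa, Areg and Hbegf, had 0.16 with SE 0.14 (adjusted p 0.506), and Rhbdf2, which carries Adam17 to the cell surface, had -0.24 with SE 0.12 (adjusted p 0.287).

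None of the 16 genes of signal relay had an unadjusted p below 0.05, 7 were above 0 and 9 below 0, and the smallest p-values were those of the adapter Shc1 (log2 fold change 0.21), the RAS activator Sos1 (0.17) and the kinase Map2k2 (-0.15), with adjusted p-values of 0.233, 0.268 and 0.286 in edgeR. Of 12 negative regulators, 10 were above 0 and 2 below, beside 6961 of 14816 genes above 0. An unadjusted p below 0.05 was found in 2 as higher and 1 as lower, shares of 16.7% and 8.33% beside 9.86% and 11.9% of all genes tested. Spred2, an inhibitor of the RAS and ERK pathway, was at 62.0 ± 11.6 CPM in sgCon and 85.2 ± 3.93 CPM in sgTaz tumors (SD, n = 5), a log2 fold change of 0.46 (adjusted p 0.096 in edgeR). Its relative Spred1 had a log2 fold change of 0.37 (adjusted p 0.132), and neither overlapped between the groups. The nearest values of Spred1, 180.90 CPM in sgCon and 180.95 CPM in sgTaz tumors, were almost equal. Dusp5, a phosphatase of ERK in the nucleus, was at 20.4 ± 3.73 CPM in sgCon and 12.8 ± 3.14 CPM in sgTaz tumors and did not overlap, with a log2 fold change of -0.67 (adjusted p 0.111).

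Transcriptional outputs of the pathway were mixed, with 6 of 9 above 0 and 3 below. Etv5, an ETS factor induced by ERK, was at 52.5 ± 8.11 CPM in sgCon and 73.5 ± 4.73 CPM in sgTaz tumors (SD, n = 5) without overlap, a log2 fold change of 0.49 (adjusted p 0.0896 in edgeR). Ccnd1, the gene of cyclin D1, had a log2 fold change of 0.31 (adjusted p 0.209). Ier3, an immediate early gene, was at 104 ± 42.9 CPM and 65.9 ± 11.7 CPM, a log2 fold change of -0.66 (adjusted p 0.152). These genes answer to other receptors as well.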

How the data were processed

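RNA of whole 4T1 tumors (5 sgCon, 5 sgTaz) was extracted with Trizol and sequenced on an Illumina HiSeq instrument. Reads were aligned by the authors with STAR (mm10, GENCODE version 12 by the methods) and counted per gene with featureCounts of Subread. The deposited values are these counts, whole numbers without normalization, in 1 column for each tumor. The strand setting and tool versions are not given in the sources used here. 5 further columns were not used. Columns were assigned to tumors by their names and the sample labels. Identifiers were matched to GENCODE M21 (17860 of 17864 found).

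The members and lists were chosen with earlier results of these data known. Counts were tested over all genes in R 4.3.3 with edgeR 4.0.16 (TMM, filterByExpr by group, quasi-likelihood test, Benjamini-Hochberg adjustment), with DESeq2 1.42.0 and limma-voom (limma 3.58.1, sample quality weights) as alternatives. The log2 CPM had a prior count of 2. RPKM is TMM-scaled CPM per kilobase of the union of exons. Ratios, single genes and pairs of members were tested with exact permutation tests in Python 3.11.15 with scipy 1.17.1 (252 splits between groups, 14400 permutations within groups). Further alternatives were RLE and upper-quartile scaling, no filter, at least 10 counts in every tumor, each tumor left out, a correction for GC content and length, the replicate number as a block, a prior count of 0.5, and the longest transcript as length. Scripts were tested on simulated data. With these totals, 3 counts are 1.53e-05% to 2.46e-05% of a tumor's counts, and this floor covers counting error only.

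Named are all members, Wwtr1 and Yap1, up to 3 further pathway genes per sublist by the smallest p, and the 2 genes nearest to each tested member by r. Within each group, every pair of tumors differed by more than sampling noise.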

Additional observations from a re-analysis of the deposited data

Results flagged for a closer look

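In 64 groups of 5 tumors (levels of the members and Wwtr1, receptor ratios, ligand shares and summed markers), 7 had a tumor far from the others by Dixon's test. A rate of 1 in 20 would give 3.2, but that rate holds for independent groups of normally distributed values. The groups share tumors and genes, and summed markers were tested in CPM without a log, so 7 cannot be read against 3.2. Of the 7, 2 were members. The log2 CPM of Tgfa in sgTaz tumor 2 was 6.58, beside 4.92 to 5.25 in the other sgTaz tumors, and that of Egf in the same tumor was -1.16, beside -0.11 to 0.02. The summed epithelial markers of sgTaz tumor 2 were 3484 CPM, beside 1556 to 2046 CPM in the others. The part of the epithelial markers in the level of Tgfa was not tested.

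The summed fibroblast markers of sgTaz tumor 1 were 1402 CPM, beside 2589 to 2985 CPM. In sgTaz tumor 5 the B cell markers summed to 117 CPM, beside 0.700 to 9.59 CPM, and those of lymph node stroma to 385 CPM, beside 1.55 to 7.61 CPM. The muscle markers of sgCon tumor 3 summed to 29.4 CPM, beside 0.411 to 7.56 CPM in the other sgCon tumors.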

How the results depend on the processing

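Of 169 fold changes of tested members under alternatives, 163 had the sign of the edgeR value. The number of members called was 0 under all edgeR alternatives, 2 with DESeq2 and 2 with limma-voom. Members at an unadjusted p below 0.05 were 4 with limma-voom, and 2 to 5 with each tumor left out, with 5 (Ereg, Hbegf, Tgfa, Nrg1 and Egfr) without sgTaz tumor 2. Over all genes, such a p was found in 3226 of 14816 in edgeR with all tumors and in 4559 of 14816 with limma-voom. With each tumor left out it was found in 2300 to 3691 genes, the most without sgTaz tumor 2 (of 15041 tested). Nrg1 and Egfr had an unadjusted p below 0.05 in all 19 alternatives. Of 43 pathway genes tested, 4 were called with DESeq2 and 7 with limma-voom, beside the numbers over the whole table given below. The log2 fold change of Egf was 0.034 with limma-voom and -0.80 to 0.15 with each tumor left out, and that of Erbb2 was -0.066 with limma-voom and -0.11 to 0.14 with each tumor left out. The cause was not tested. Genes called over the whole table were 1 in edgeR, 1069 in DESeq2, 1546 in limma-voom, 5 with at least 10 counts in every tumor, 0 with no filter, and 0 to 172 with each tumor left out (172 without sgTaz tumor 5, 75 without sgTaz tumor 2).

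Tumors with the same number did not deviate together (r -0.24 to 0.22), so the numbers were not read as pairs. With the replicate block, no member was called, Nrg1 had a log2 fold change of 0.68 (adjusted p 0.162 in edgeR) and Egfr 0.67 (adjusted p 0.240), and 0 genes were called over the whole table. No call of a receptor ratio changed under any alternative tried, and the sign-flip test over 5 pairs cannot go below an exact p of 0.0625. Of 48 levels and shares under the other length, or under none, 23 moved by more than 1 SD and 25 by less. Ereg, Egf and Btc rest on few counts.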
